A study of Homo sapiens with 8 samples.

Results

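The 10 genes described here form a smooth muscle contractile set. It holds actin, myosin, tropomyosin and actin-binding protein genes: ACTA2, ACTG2, MYH11, MYH9 (a nonmuscle myosin), MYL9, TPM1, TPM2, TAGLN, CNN1 and CALD1. They were chosen by name among 20136 protein-coding genes, and each was given the accessible chromatin sites from its annotated gene body out to 50 kb on either side. Accessibility was measured by ATAC-seq, in which a transposase inserts sequencing adapters into open DNA, in LX-2, a cell line derived from human hepatic stellate cells and recorded as wild type. Fibronectin-coated polyacrylamide gels with a stiffness near 2 kPa (soft) or 40 kPa (stiff) carried the cells, which were collected on day 2 or day 4, which gave 8 libraries, 2 for each gel and day (for example D2 soft). The study describes its sequencing replicates as biological, the labels do not say whether they came from separate cultures, and the p-values measure the spread between these libraries. All of them come from 1 cell line.

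Stellate cells store retinoids in the normal liver and turn into myofibroblasts in fibrosis, when they acquire stress fibres and contract. Smooth muscle actin, encoded by ACTA2, is the usual marker of that state. Transcription of many contractile genes is driven by serum response factor together with myocardin or the myocardin-related factors, which respond to the pool of free actin and bind DNA at a sequence called the CArG box. The question asked of the data was where the chromatin of these genes was open, and whether that differed between soft and stiff gels or between days.

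Peaks had been called in each library separately, and 29789 to 72840 were listed per library. D2 soft replicate 1 stood apart as the shortest list, with a background of 0.780 fragments per kb against 2.08 to 3.15 in the other libraries. Peaks that overlapped were merged, and the 75501 regions with a peak in at least 2 libraries, here called sites, held 111 in the windows of the 10 genes, none shared between genes. Of these, 35 had a peak in every library, 31.5% against 32.1% of all sites. The contractile genes' windows held 0.128% to 0.175% of the peaks of each list. The identity of the cells was checked at the promoters of marker genes: hepatic stellate genes had a promoter peak in all 8 libraries at 4 of 13 (PDGFRB, LHX2, COL1A1 and VIM), against 46.1% of protein-coding genes, and DES and DCN had none in any. Hepatocyte genes had one in all 8 libraries at 0 of 6, endothelial genes at 0 of 5 analysed, macrophage genes at 1 of 5 (CD68) and cholangiocyte genes at 1 of 4 (KRT7). Of the mature smooth muscle markers 3 of 7 did (LMOD1, SMTN and MYOCD), while ACTG2 and DES had none.

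Among the 111 sites, 8 lay within 1 kb of the canonical start of their gene, 9 within 1 kb of another annotated start of the same gene, 23 at the promoter of a neighbouring gene and 71 elsewhere (distal). A peak in every library was found at 5 of the 8 canonical promoter sites, 15 of the 23 neighbours' promoters, 3 of the 9 alternative promoters and 12 of the 71 distal sites. The height of a peak is given as its percentile of fold enrichment over the local background within its own list, where 100 is the highest. The median over libraries and sites was 62.0 for canonical promoters, 73.4 for the neighbours' promoters, 32.1 for alternative promoters and 30.4 for distal sites. The window edge left out some sites: the nearest one outside lay 50569 bp from TPM1, with a peak in 7 libraries, and 50781 bp from CALD1, with a peak in 8.

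**Figure D1:**
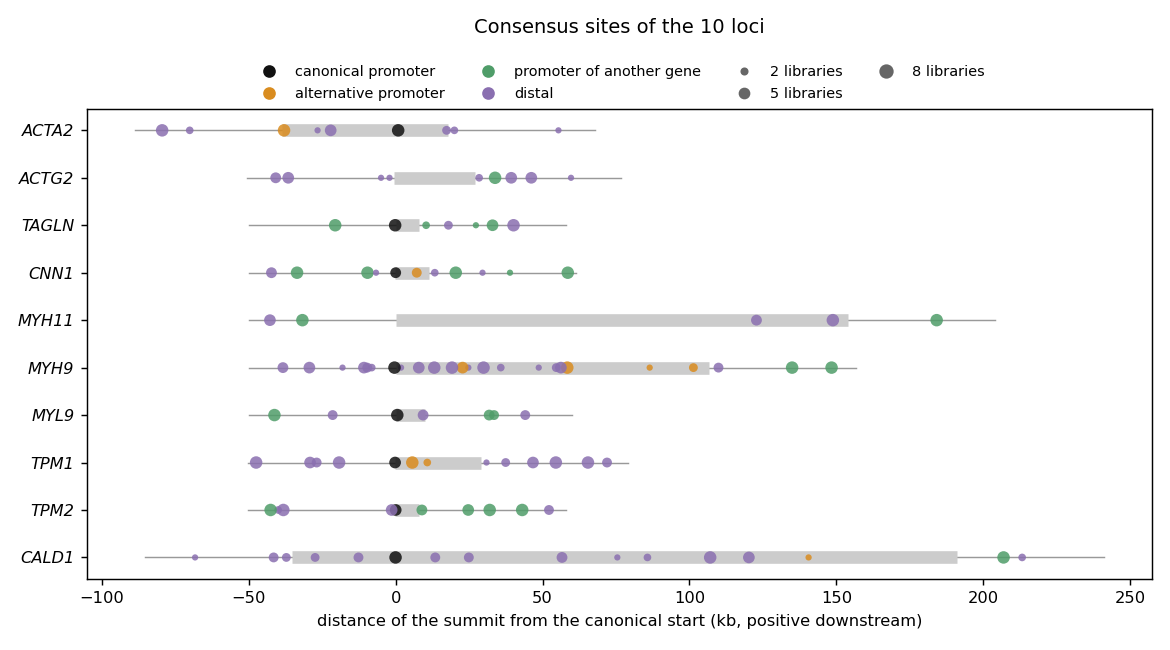
Consensus sites of the 10 loci by the distance of the summit from the canonical start (kb, positive in the direction of transcription). Grey bars are gene bodies, thin lines the windows of 50 kb on each side, colours the class of site and dot areas the number of libraries with a peak; MYH9 holds 24 sites and MYH11 holds 5, and no site lies at the start of ACTG2 or MYH11.

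The sequences before the starts of both smooth muscle actin genes are shown because neither start was covered by a peak. The CArG box of ACTG2, and in ACTA2 the near matches with 1 inner letter free, are in capitals. Each run ends upstream of the canonical start and is written 5′ to 3′ on the gene's own strand, hg19.
ACTA2, chr10:90712531-90712730, minus strand: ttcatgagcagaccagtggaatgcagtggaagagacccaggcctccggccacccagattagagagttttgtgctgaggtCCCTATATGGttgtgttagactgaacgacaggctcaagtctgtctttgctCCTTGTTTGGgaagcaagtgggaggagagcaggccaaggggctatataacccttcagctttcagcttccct
ACTG2, chr2:74119935-74120070, plus strand: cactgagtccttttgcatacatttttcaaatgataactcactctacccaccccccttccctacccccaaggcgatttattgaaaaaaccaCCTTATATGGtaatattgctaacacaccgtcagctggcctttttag

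From 250 bp before to 50 bp after the canonical start, a CArG box was found on either strand in 1.20% of the 20136 protein-coding promoters, and ACTG2 held it at −110 and −73. The box of ACTG2 at −73 is cut by the end of the printed run and was left in lower case. With 1 inner letter free, a form chosen after the ACTA2 sequence was seen and held by 7.40% of promoters, ACTA2 also matched at −121 and −71. These matches describe the letters only.

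ACTA2, which encodes smooth muscle actin, was open beside its start and not at it. The canonical start at chr10:90712530 was covered by 0 of 8 peak lists. A site at chr10:90711016-90712197, in an intron with its summit 847 bp downstream of the start, had a peak in every library. Its percentiles were 89.1 and 83.1 at day 2 and 94.7 and 78.2 at day 4 on soft gels, then 88.3 and 75 at day 2 and 89.1 and 95.1 at day 4 on stiff gels. Soft and stiff libraries overlapped over nearly the whole range, and the stiff mean of 86.9 differed from the soft mean of 86.3 by 0.575 percentile points (exact two-sided permutation test, n = 4 against 4 libraries, p = 0.943, adjusted p = 0.995 over 9277 genes with a promoter peak in all libraries; the smallest p these 70 arrangements allow is 0.0286).

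The longer ACTA2 transcripts start within a site at chr10:90749781-90751519, 38.0 kb upstream, which is also the promoter of FAS, a death receptor gene transcribed the other way. Its percentiles were 71.1 and 66.1 at day 2 and 79.7 and 73.0 at day 4 on soft gels, then 54.1 and 36.3 at day 2 and 70.5 and 47.7 at day 4 on stiff gels. On each day both soft libraries stood above both stiff ones, whereas over the days the groups overlapped. With peaks ranked by −log10 p, a measure described below, this order held on day 2 only. The day 4 percentiles were then 91.8 and 83.8 on soft and 88.4 and 70.7 on stiff gels. How many of all sites had soft above stiff on both days was not counted. A further site 79.5 kb upstream, chr10:90791726-90792393, had percentiles of 40.2 and 63.5 at day 2 and 67.6 and 88.6 at day 4 on soft gels, then 33.3 and 24.3 at day 2 and 77.2 and 51.6 at day 4 on stiff gels. It was lowest in D2 stiff. Neither site passed the test over all sites, which is given below.

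Over the 8 libraries, the genes whose best promoter percentile ran closest to that of ACTA2 were SMIM15, ARHGAP28 and ATG4A, at Euclidean distances of 11.7, 11.7 and 12.2 percentile points among the 9277 genes. These distances are a description of levels in the same libraries.

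ACTG2 encodes the smooth muscle actin of the gut and bladder wall, and none of its 5 annotated starts was covered by a peak in any library. Its nearest sites, 2.10 and 4.99 kb upstream, had peaks in 2 libraries each, D4 soft replicate 2 and D4 stiff replicate 1, at percentiles of 5.0 to 23.5. The 1 site of its window found in every library, chr2:74153802-74154422, was the promoter of DGUOK, at 81.0 to 96.5. Sites at 39.3 and 46.2 kb downstream of the start were each missing from D2 soft replicate 1 and present in the 7 other libraries, at 66.1 to 87.1 and 41.8 to 79.6.

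MYH11 encodes the smooth muscle myosin heavy chain, the gene most restricted to mature smooth muscle among the 10. Its start was likewise covered by no peak, and a single peak within 1 kb, 833 bp upstream in D4 soft replicate 2, ranked at the 17.2 percentile. Inside the long gene body 1 site was steady: chr16:15801843-15802480, in an intron 149 kb from the start, had a peak in every library. Its percentiles were 71.8 and 84.8 at day 2 and 90.5 and 51.4 at day 4 on soft gels, then 86.6 and 86.6 at day 2 and 88.7 and 91.3 at day 4 on stiff gels. All 4 stiff libraries lay above 3 of the soft ones, with D4 soft replicate 1 among the stiff values. A second intronic site, 123 kb from the start, had peaks in 6 libraries, at 50.4 to 71.7, and was missing from both D4 soft libraries.

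MYH9 encodes the nonmuscle myosin IIA heavy chain, the motor of stress fibres in most adherent cells, and had the most sites of the 10 genes, 24. Its promoter site, chr22:36783944-36784663, covered the start in every library, with percentiles of 84.7 and 77.0 at day 2 and 63.6 and 57.7 at day 4 on soft gels, then 77.0 and 74.7 at day 2 and 59.7 and 71.5 at day 4 on stiff gels. Every day 4 value was below every day 2 value by fold enrichment. Ranked by −log10 p, a measure described below, the days overlapped, at 93.9 to 96.6 on day 2 and 85.1 to 97.7 on day 4. The highest was then D4 stiff replicate 2. Separation of the days by fold enrichment was not counted over all sites, so it does not describe MYH9 in particular. The gene body held a run of sites, of which 4 away from the canonical start were present in all libraries. The 1 at chr22:36724879-36725960, 58.4 kb into the gene at the start of a noncoding transcript, is shown because it was 1 of 2 sites among the 111 with a CArG box within 100 bp of the summit (capitals, preceded by the TEAD letters GGAATG). Its summit lies at the middle base.
MYH9 +58.4 kb, chr22:36725507-36725707, minus strand: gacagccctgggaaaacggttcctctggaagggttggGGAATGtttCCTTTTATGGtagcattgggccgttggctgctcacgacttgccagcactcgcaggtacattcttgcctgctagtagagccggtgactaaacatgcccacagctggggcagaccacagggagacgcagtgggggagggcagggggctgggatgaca

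MYL9 encodes the regulatory light chain whose phosphorylation starts contraction. Its promoter site, chr20:35168999-35170899, had its summit 545 bp downstream of the start, in an intron. The percentiles were 75.8 and 53.2 at day 2 and 40.3 and 40.3 at day 4 on soft gels, then 52.9 and 37.1 at day 2 and 46.8 and 30.9 at day 4 on stiff gels. D2 soft replicate 1, the shortest list, held the highest value. The stiff mean of 41.9 lay 10.5 percentile points under the soft mean of 52.4 (exact permutation test, n = 4 against 4, p = 0.343, adjusted p = 0.856); without D2 soft replicate 1 the difference was −2.65.

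The tropomyosins TPM1 and TPM2 encode the coiled coils that lie along actin filaments. TPM1 has several start regions, and the canonical one was covered in 7 libraries, all but D2 soft replicate 1, at 43.7 to 76.1. The internal start region 5.65 kb downstream, chr15:63339643-63341467, had a peak in every library at 15.2 and 42.1 at day 2 and 42.8 and 34.6 at day 4 on soft gels, then 45.2 and 42.1 at day 2 and 34.3 and 56.9 at day 4 on stiff gels. D2 soft replicate 1 was the lowest at both regions, and soft and stiff overlapped otherwise. The best promoter peak of TPM1 was 11.9 percentile points higher on stiff gels (exact permutation test, n = 4 against 4, p = 0.429, adjusted p = 0.882), and 1.52 without D2 soft replicate 1. TPM2 had a peak within 1 kb of its start in 7 libraries, all but D2 stiff replicate 2, of which 6 covered the start, and all were low, from 4.4 to 24.5.

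Far stronger sites lay beyond the 3′ end of TPM1. The site at chr15:63389260-63389967, 54.5 kb from the start and outside any annotated protein-coding gene, ranked at 96.8 and 99.1 at day 2 and 98.2 and 99.1 at day 4 on soft gels, then 98.2 and 94.6 at day 2 and 98.4 and 97.4 at day 4 on stiff gels. It was the highest of all distal sites of the 10 genes. A second at 65.4 kb ranked at 84.3 to 99.8 in all libraries, and another at 46.7 kb at 88.0 to 96.8 in the 7 libraries other than D2 soft replicate 1. The next highest distal site belonged to the TAGLN window, 40.1 kb downstream of the start within RNF214, chr11:117109726-117110390, at 85.6 and 99.7 at day 2 and 99.3 and 95.5 at day 4 on soft gels, then 99.1 and 98.2 at day 2 and 97.8 and 95.8 at day 4 on stiff gels. By −log10 p, a measure described below, the TPM1 site at 65.4 kb (median percentile 98.1) stood above this TAGLN site (93.7). The 100 bp on each side of the summits of the TPM1 site at 54.5 kb and the TAGLN site are shown. These were the highest distal sites by fold enrichment. The AP-1 letters TGACTCA or TGAGTCA and the TEAD letters GGAATG are in capitals.
TPM1 +54.5 kb, chr15:63389354-63389554, plus strand: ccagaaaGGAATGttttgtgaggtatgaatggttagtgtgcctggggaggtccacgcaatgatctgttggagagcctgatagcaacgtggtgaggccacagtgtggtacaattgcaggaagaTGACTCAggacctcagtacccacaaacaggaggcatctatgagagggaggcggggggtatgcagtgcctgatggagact
TAGLN +40.1 kb, chr11:117110090-117110290, plus strand: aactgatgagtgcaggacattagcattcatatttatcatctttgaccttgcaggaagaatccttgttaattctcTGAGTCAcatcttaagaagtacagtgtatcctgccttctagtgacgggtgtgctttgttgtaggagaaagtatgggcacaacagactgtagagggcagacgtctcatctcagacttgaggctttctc

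Within 100 bp of the summit, the AP-1 letters were present at 22 of the 111 sites, 19.8%, against 30.2% of all 75501 sites. By class they were at 18 of 71 distal sites, 3 of 9 alternative promoters, 1 of 23 neighbours' promoters and 0 of 8 canonical promoters. The TEAD letters were at 20.7% of the 111 and 19.1% of all sites. GC boxes (GGGCGG, either strand) were at 6 of the 8 canonical promoters, at 25.2% of the 111 and at 16.0% of all sites. From 250 bp before to 50 bp after the canonical start, 61.0% of all protein-coding promoters held a GC box. The shares over all sites were not split by class, so the mix of promoter and distal sites was not allowed for in these comparisons.

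The actin-binding genes differed from each other. TAGLN encodes transgelin, and its promoter site at chr11:117069535-117070668, whose summit lay 183 bp upstream of the start, ranked at 65.7 and 89.9 at day 2 and 75.2 and 63.7 at day 4 on soft gels, then 67.5 and 81.6 at day 2 and 69.1 and 68.2 at day 4 on stiff gels. The day 2 soft replicates were the farthest apart and the groups overlapped. CALD1 encodes caldesmon, and its promoter site at chr7:134463801-134465131 was the highest of the canonical promoters and the least variable, at 87.2 and 91.7 at day 2 and 89.8 and 95 at day 4 on soft gels, then 94.1 and 93.7 at day 2 and 95.3 and 90.9 at day 4 on stiff gels. For CALD1 the stiff mean was 2.59 percentile points higher (exact permutation test, n = 4 against 4, p = 0.257, adjusted p = 0.830). CNN1 encodes calponin, and a peak covered its start in 2 soft and 4 stiff libraries. Its percentiles were 29.0 in D2 soft replicate 2, 16.5 and 53.0 in D2 stiff, 2.48 in D4 soft replicate 1, and 27.8 and 47.6 in D4 stiff, with no peak in D2 soft replicate 1 and D4 soft replicate 2. Both libraries without a peak were among the 3 shortest lists, and the part of list length in this difference was not tested. A second CNN1 site, 7.17 kb downstream at internal starts, had a peak in the same 4 stiff libraries and in D4 soft replicate 1 alone among the soft ones.

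**Figure D2:**
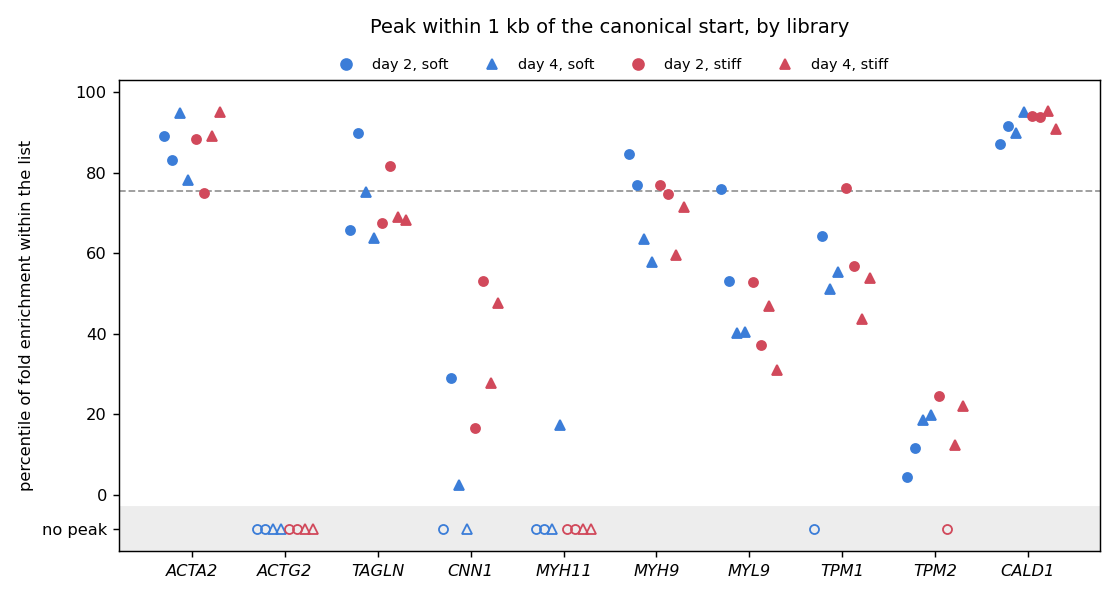
Percentile of fold enrichment within each library's list for the best peak within 1 kb of the canonical start, by gene; circles are day 2, triangles day 4, blue soft and red stiff, and open symbols in the grey band mark no peak. The dashed line is the median of 75.4 over 9277 genes with a peak at any start in all libraries; CALD1 stays between 87.2 and 95.3, TPM2 below 24.5, and ACTG2 has no peak.

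A promoter peak at any annotated start was found in all 8 libraries for 6 of the 10 genes (ACTA2, TAGLN, MYH9, MYL9, TPM1 and CALD1), against 46.1% of all protein-coding genes, and in none for ACTG2, against 27.6%. The 6 had a median of 70.9 against 75.4 over the 9277 such genes. In none of the 6 was every stiff library above every soft library or the reverse, against 3.55% and 0.992% of those genes. The median difference between stiff and soft was −0.109 percentile points for the 6 and 3.66 over all 9277. Percentiles were taken within lists of unequal length, and the part of list length in the differences of this paragraph was not tested. Among 11 nonmuscle counterparts (such as ACTB and MYH10) 9 had a promoter peak in every library. Of 15 other smooth muscle genes 8 did, and DES, PLN and ITGA8 had no promoter peak in any library. Of 10 regulators 9 did, including SRF, MYOCD, MRTFA and MRTFB, with ROCK2 in 7 libraries. VCL (vinculin), ACTN1 (an actinin) and MYOCD (myocardin) were higher on stiff gels by 24.9, 14.7 and 17.0 percentile points, each at an exact permutation p of 0.0571 (n = 4 against 4), which did not pass, and adjusted p was 0.690. They are named because their p was the smallest among the genes of these groups with a promoter peak in every library. Lower on stiff gels were TGFB1I1 (−8.11), MRTFB (−5.76), MRTFA (−2.15), MYL12B (−1.53), SRF (−0.955) and PDLIM5 (−0.943). The share of all genes at that p was not counted.

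Rank by significance gave another picture of the same promoters. The lists also hold −log10 p for each peak. Both measures set the peak against its local background, and at equal fold enrichment −log10 p grows with the number of fragments. At the TPM1 internal start region the median percentile was 42.1 by fold enrichment and 90.2 by −log10 p. At the MYH9 site 58.4 kb into the gene it was 48.3 and 90.8, at the MYH9 promoter 73.1 and 95.7, at the TAGLN promoter 68.6 and 89.2 and at the MYL9 promoter 43.5 and 63.1. The ACTA2 site moved the other way, from 88.7 to 84.1. The local background behind each peak, recovered from both columns on the assumption of the standard MACS2 background and pseudocount, was a median of 18.4 times the genome-wide background at the TPM1 region, 17.1 times at the MYH9 intronic site, 12.6 times at the MYH9 promoter and 3.62 times at the ACTA2 site, against 3.79 times over all 24246 sites found in every library. Over those sites the difference between both percentiles had a median of 0.0488 and quartiles of −4.94 and 7.75, and over the 35 contractile gene sites a median of 3.31 and quartiles of −2.83 and 17.4. By either measure CALD1 was the highest of the canonical promoters found in every library.

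**Figure D3:**
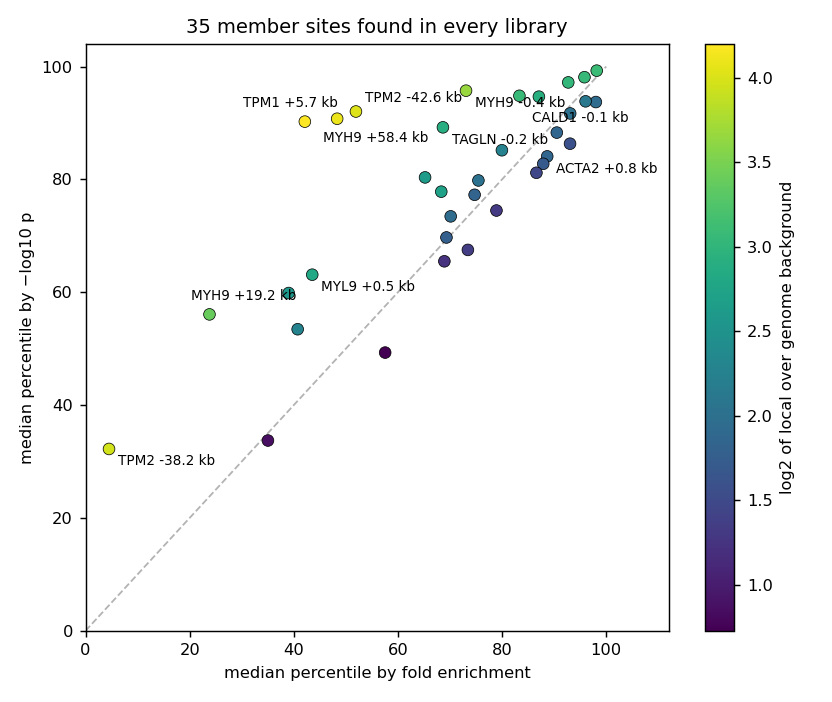
Median percentile over 8 libraries by fold enrichment (horizontal) and by −log10 p (vertical) for the 35 contractile gene sites found in every library, coloured by the log2 of the local over the genome background. Canonical promoters and sites over 25 points from the dashed line of equality are named by distance from the start; sites with the highest local background, among them TPM1 +5.7 kb at 42.1 and 90.2, lie farthest above the line.

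The comparison of stiff with soft gels was made at the 24246 sites found in every library. Fold enrichment was ranked among these sites in each library, turned into a normal score and fitted with limma. These ranks differ from the percentiles above, which run over the whole list. None of the 35 contractile gene sites passed an adjusted p of 0.05 in any of the 6 comparisons, and 0.00412% of all sites did for D2 stiff against D2 soft, 0.00825% for D4 stiff against D4 soft and for both days together, and 0% for the others. At an unadjusted p under 0.05, 3 of 35 were lower on stiff gels on day 2 and 4 of 35 over both days, with 0 higher, against 3.38% and 3.32% of all sites lower and 4.28% and 4.4% higher. On day 4 there were 0 in either direction, against 5.35%. Over both days 23 of the 35 sites had negative and 12 positive differences, while 48.5% of all sites had positive ones. The median was −0.12 score units against −0.02 over all sites. Of the 35 sites, 15 were promoters of neighbouring genes.

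The 4 sites were the FAS and ACTA2 start region (−0.91 ± 0.35 SE, limma adjusted p = 0.568), the site 79.5 kb upstream of ACTA2 (−0.91 ± 0.36, adjusted p = 0.582), an intronic CALD1 site 107 kb from its start (−0.88 ± 0.37, adjusted p = 0.602) and the shared promoter of CREB3 and TLN1 in the TPM2 window (−0.80 ± 0.33, adjusted p = 0.596). TLN1 encodes talin, which links integrins to actin. The percentiles at that last promoter were 53.8 and 67.7 at day 2 and 71.4 and 57.0 at day 4 on soft gels, then 50.1 and 47.7 at day 2 and 42.7 and 42 at day 4 on stiff gels. By fold enrichment every stiff library was thus below every soft one. By −log10 p the gels overlapped there, at 83.8 to 97.7 on soft and 87.4 to 92.7 on stiff gels. The share of all sites with such a separation was not counted. At the canonical promoters the differences over both days were −0.10 ± 0.36 for ACTA2, −0.32 ± 0.34 for TAGLN, −0.57 ± 0.36 for MYL9, −0.20 ± 0.34 for MYH9 and 0.05 ± 0.34 for CALD1, each smaller than 2 SE. In bulk libraries such as these, fewer cells with an open site and a site less open in each cell cannot be told apart.

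**Figure D4:**
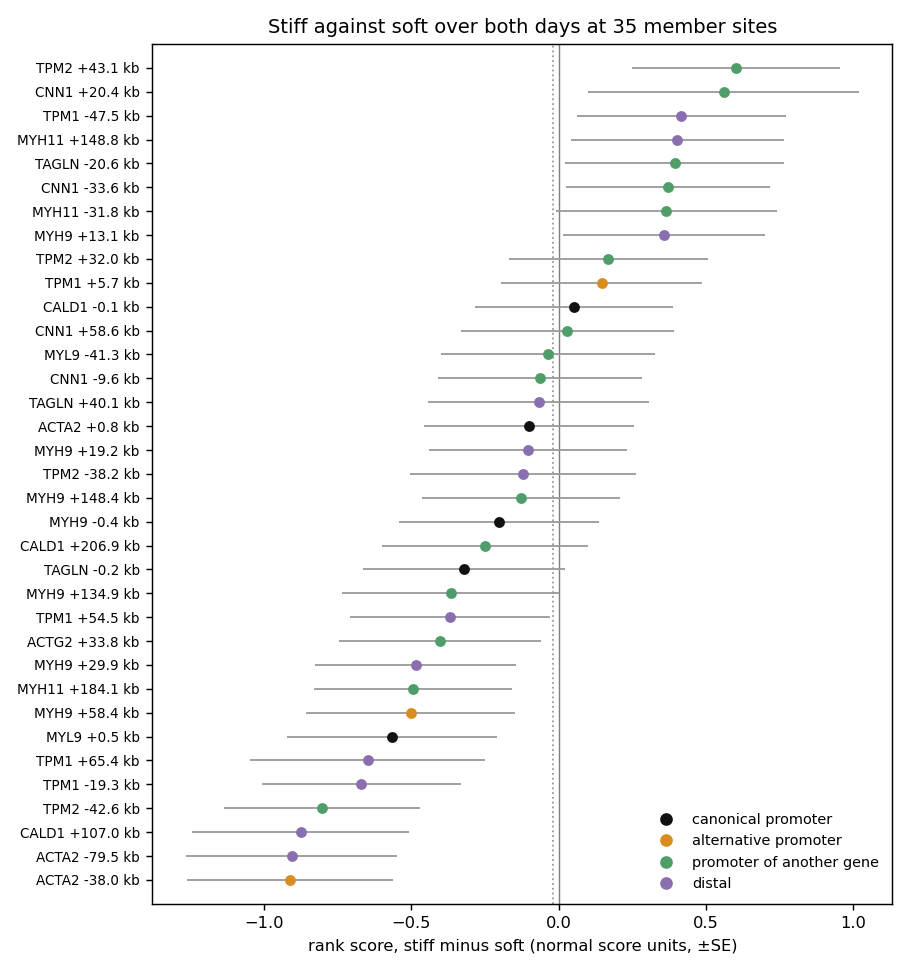
Difference in rank score, stiff minus soft over both days (±SE), at the 35 contractile gene sites found in every library, named by gene and distance from the canonical start and coloured by class; the dotted line is the median over 24246 sites. The 12 positive and 23 negative values run from −0.91 at ACTA2 −38.0 kb to 0.60 at TPM2 +43.1 kb, and none passed the adjusted threshold.

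Day was compared within each gel. From D2 soft to D4 soft, 2 of 35 sites were lower at an unadjusted p under 0.05, against 3.04% of all sites, and both were canonical promoters: MYL9 (−1.11 ± 0.50, limma adjusted p = 0.677) and MYH9 (−1.01 ± 0.48, adjusted p = 0.688). From D2 stiff to D4 stiff 1 of 35 was higher, against 3.13%, the site 79.5 kb upstream of ACTA2 (1.10 ± 0.51, adjusted p = 0.926). The difference between the days in the effect of stiffness reached an unadjusted p under 0.05 at 0 of 35 sites, against 5.27%.

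Sites present on 1 gel only were counted without a test, since 2 libraries stand against 2. On day 2, 7 of the 111 sites had a peak in both stiff and neither soft library, 6.31% against 7.45% of all sites: 2 each in the windows of TPM1, CALD1 and TPM2 and the CNN1 site at 7.17 kb. The reverse held for 1 site, in a CALD1 intron, against 0.391%. On day 4, 12 sites were stiff only, 10.8% against 6.72%: 4 in the MYH9 window, 3 in that of CALD1 and 1 each in those of ACTA2, TAGLN, TPM1, MYH11 and CNN1. The highest of these were the MYH11 site 123 kb into the gene, at 71.7 and 68.5, and a CALD1 intronic site 13.5 kb from the start, at 72.0 and 61.5, and both also had peaks in day 2 libraries. The reverse held for 1 CALD1 site on day 4, against 1.31%. No contractile gene site had a peak in all 4 stiff and no soft library, against 0.85%, or in all 4 soft and no stiff library, against 0.0172%. When each list was shortened to the strongest peaks to match the shortest list, the stiff-only counts were 0 of 53 sites on day 2, against 4.06% of all sites, and 2 of 53 on day 4, against 3%.

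The number of sites with a peak per locus was higher on stiff gels for all 10 genes, by 0.75 (MYH11) to 4.75 (MYH9) sites, with a median of 1.62 against 1 over 19103 genes. In the MYH9 window the counts were 11 and 15 at day 2 and 17 and 13 at day 4 on soft gels, then 17 and 20 at day 2 and 20 and 18 at day 4 on stiff gels (exact permutation test, n = 4 against 4, p = 0.0571, adjusted p = 0.606). In the TPM2 window they were 6 and 8 at day 2 and 8 and 8 at day 4 on soft gels, then 10 and 9 at day 2 and 9 and 9 at day 4 on stiff gels, so that every stiff library exceeded every soft one, at the smallest p of the design (exact permutation test, n = 4 against 4, p = 0.0286, adjusted p = 0.549). That was 1 of 10 genes, against 5.21% of all genes, with 0 adjusted calls in either. The stiff lists were also among the longest, with 59277 to 72840 peaks. Per 10000 peaks of the list the difference was negative for ACTG2, CNN1, MYH11, MYL9, TPM1, TPM2 and CALD1 and positive for ACTA2, TAGLN and MYH9, with a median of −0.033 over all genes. With D2 soft replicate 1 left out, a setting chosen after seeing the data, it was positive for all of the 10 but ACTG2 (−0.12), and the median over all genes was −0.015.

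**Figure D5:**
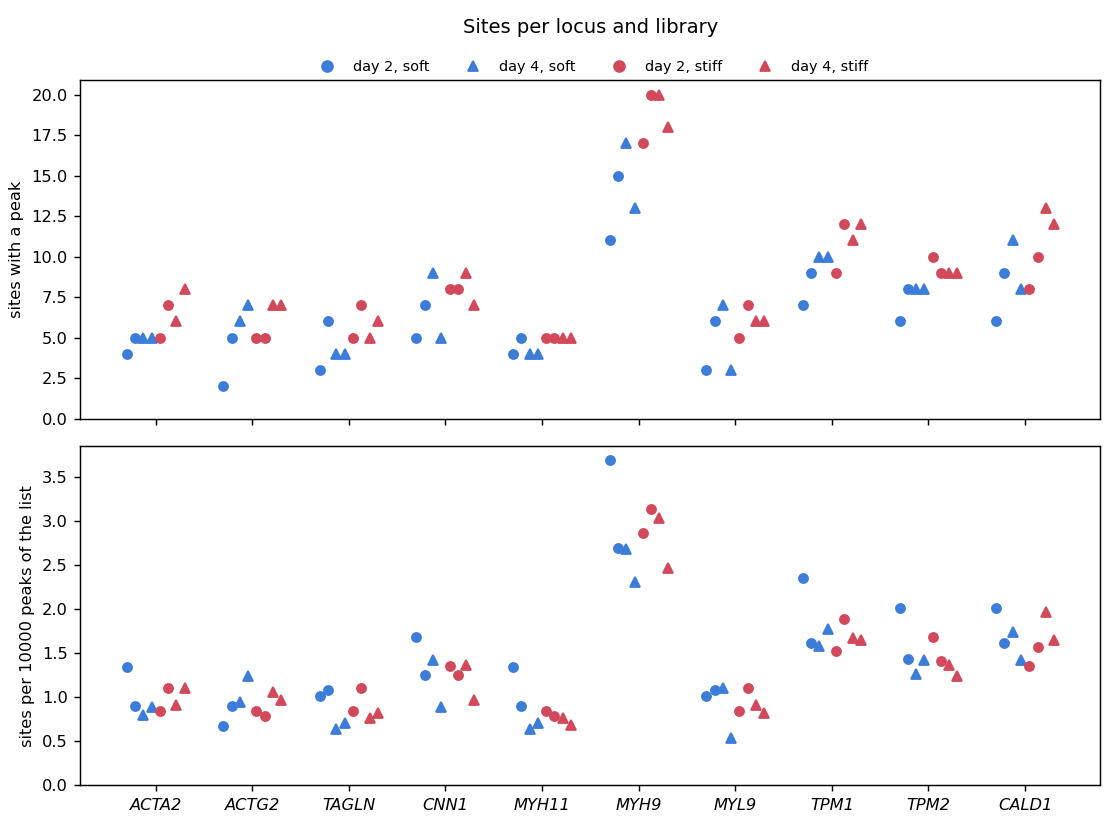
Number of sites with a peak per locus and library (top) and the same per 10000 peaks of the library's list (bottom); circles are day 2, triangles day 4, blue soft and red stiff. In the top panel stiff libraries reach 20 sites at MYH9 and lie above all soft ones at TPM2, with 9 or 10 against 6 to 8; in the bottom panel D2 soft replicate 1, the shortest list, is the highest library at 7 genes, all but ACTG2, TAGLN and MYL9.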

How the data were processed

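ATAC-seq libraries were trimmed with TrimGalore, aligned to hg19 with Bowtie2 (version 2.4.1 in the submitters' processing notes) and called with MACS2 at a q-value of up to 0.05 by the authors. The deposited narrowPeak lists give, per peak, fold enrichment (a ratio to local background), −log10 p, −log10 of the q-value and an integer score; read counts and total depth were not used here. The 8 lists, 1 per library, hold 466883 peaks. Summit pileup and local background were recovered from fold enrichment and −log10 p with a Poisson model that assumes the standard MACS2 background and pseudocount, to within 0.001, and solved for 100% of peaks. Intervals from such pileups would cover counting error only.

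Overlapping peaks (1 bp) were merged, with genes from GENCODE release 44 on hg19. Scores were fitted with limma 3.58.1 (R 4.3.3) with Benjamini-Hochberg adjustment over 24246 sites. On simulated data 17% of 200 sites changed 2-fold and 100% changed 4-fold were recovered for stiff against soft over both days. The simulation ranked summit pileups with a common spread for all sites and no local background. It also kept every site in all libraries, so these shares do not give the recovery in the real lists. Single values per gene were compared with exact permutation tests. Sequence was read from GRCh37. Named were the 10 genes, their canonical promoter sites and, for some of them, the best distal site. Sites past a threshold, some of those present on 1 side only and the 3 genes nearest ACTA2 were named too. Some marker genes and genes of the related groups were named as well. The genes and lists were chosen with earlier results of these data known. PECAM1 was not analysed here. Some promoter sequences, and motif counts over the 10 promoters, are not reported here.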

Additional observations from a re-analysis of the deposited data

Results flagged for a closer look

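In groups of 4 libraries of the same gel, 5 values were set apart from the others by a gap that was large for the range, among 32 groups examined. Chance does so in about 1 group in 20 for continuous values. That rate does not hold for the 4 site counts below, where the other libraries tie and a difference of 1 or 2 sites is enough. D2 soft replicate 1 had the fewest sites among the soft libraries at ACTA2 (4, the others 5) and TPM2 (6, the others 8), and it is the shortest list. D2 soft replicate 2 had 5 sites at MYH11, where the other soft libraries had 4, and D2 stiff replicate 1 had 10 at TPM2, where the other stiff libraries had 9. The best TAGLN promoter percentile was 81.6 in D2 stiff replicate 2 and 67.5 to 69.1 in the other stiff libraries.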

How the results depend on the processing

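No contractile gene site passed an adjusted p of 0.05 in any of the 6 limma comparisons under ranks of −log10 p, lists of equal length, peaks with q up to 0.01, absent peaks ranked last, scaled log2 summit pileup, the compared libraries alone or windows of 10 kb. At an unadjusted limma p under 0.05 there were 0 to 4 sites a comparison, except with absent peaks ranked last, where 1 to 15 of 111 sites were. The share of all sites at that p was not counted in these settings, so these counts do not describe the contractile genes in particular. With 1 library left out the day 2 count ran from 0 to 1: without D2 soft replicate 2, which leaves D2 soft replicate 1 alone and assumed to vary like the other groups, the ELOF1 and ZNF627 promoter in the CNN1 window passed (2.68 ± 0.58 SE, limma adjusted p = 0.0219). The replicate numbers did not pair the libraries (correlations from −0.041 to 0.084), and with a replicate block 0 sites passed in each comparison.

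Lists of equal length, cut to the length of D2 soft replicate 1, gave stiff-only counts of 0 (day 2) and 2 (day 4) and soft-only counts of 3 and 0. Windows of 10 kb gave 4 stiff-only sites on day 2, and summits within 250 bp gave 0 soft-only sites on day 2. With 1 library left out the stiff-only counts were 10 to 31 on day 2 and 13 to 23 on day 4, the highest without D2 soft replicate 2 and D4 soft replicate 1. The soft-only counts were then 2 to 5 and 1 to 5, and sites in all stiff and no soft libraries 0 to 4. Fewer libraries make such patterns easier to meet. Apart from the stiff-only counts with equal lists, the share over all sites is not given beside these counts. They do not describe the contractile genes in particular.

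The 1 gene with more sites in every stiff library, TPM2, became 0 with equal lists, summits within 250 bp and counts per 10000 peaks, and 1 to 3 with 1 library left out. With equal lists the difference in sites reversed to −0.75 for ACTA2 and MYH9, −0.25 for TPM1 and −0.5 for CALD1, and windows of 10 kb gave −0.25 for ACTG2. Per 10000 peaks it was −0.0267 for ACTG2, −0.0778 for CNN1, −0.127 for MYH11, −0.0113 for MYL9, −0.15 for TPM1, −0.108 for TPM2 and −0.0616 for CALD1; with D2 soft replicate 1 also left out, a setting added after seeing the data, only ACTG2 was negative (−0.116) and TPM2, the 1 called gene, did not pass.

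Promoter differences close to 0 changed sign: the percentile difference was −4.5 for ACTA2 with equal lists, and 4.44 for TAGLN and 2.08 for MYH9 with ranks of −log10 p. With 1 library left out it ran from −2.18 to 4.53 for ACTA2, −5.38 to 3.39 for TAGLN and −4.41 to 3.61 for MYH9. The rank score was 0.25 for MYH9 and −0.025 for CALD1 with ranks of −log10 p, and with 1 library left out −0.34 to 0.14 for ACTA2 and −0.073 to 0.18 for CALD1. The cause was not tested. In D2 soft replicate 1, the shortest list, a closed site and one missed for lack of depth cannot be told apart.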
